A study of Mus musculus with 6 samples.

Results

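Carbonic anhydrases are the enzymes that interconvert carbon dioxide and water with bicarbonate and protons. The genes described are Car2, Car3, Car4, Car5b, Car8, Car9, Car11, Car12, Car13 and Car14, taken by symbol from the 57127 genes listed in the count table of the whole mouse epididymis. All 10 are listed, and they stand among 16 genes of the family; 8 of the 10 had enough counts to be tested, as did 19691 genes in all. The libraries come from adult C57BL/6 mice that were either wild type (WT) or lacked occludin (Ocln-/-, called Ocln-KO). Occludin is a tight junction protein, and the knockout mice were bred from heterozygous parents. Each genotype has 3 libraries; the sources speak both of separate extraction from 3 pairs of mice and of pooled RNA, so n counts libraries. An extraction text in the sample labels names prefrontal cortex, whereas the tissue label and the paper give epididymis.

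In the epididymal duct, sperm mature and are stored in fluid that the epithelium keeps acidic and low in bicarbonate. Clear cells secrete protons through the vacuolar proton pump, and carbonic anhydrase in the cytosol can supply those protons. Carbonic anhydrases on the cell surface act on bicarbonate outside the cell, next to the transporters and exchangers that carry it across the membrane.

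The libraries held 38870780, 35066211 and 38073990 counts in WT and 30646424, 31570990 and 32776523 in Ocln-KO. Levels are given in counts per 1000000 counts (CPM) after scaling of the libraries by TMM factors, and 3 counts equal between 0.0802 and 0.0942 CPM. Ocln itself had 85.9, 78.8 and 91.8 CPM in WT, against 15.1, 15.3 and 14.9 CPM in Ocln-KO, so the targeted gene was lower in every library labelled as a knockout. Crisp1, an abundant secreted protein of the epididymis, had 16769, 12488 and 15417 CPM in WT, against 9957, 9160 and 4439 CPM in Ocln-KO. Rnase10, known from the most proximal epididymis, reached at most 0.592 CPM in any library. Of 7 Hox genes of the distal region, Hoxa11, Hoxa13, Hoxd11 and Hoxd13 were at 0 in all 6. As the mode of counting is not given in the sources used here, these values of 0 may not show an absence of RNA. The 8 brain markers summed to 24.6, 26.5 and 21.2 CPM in WT, against 30.8, 29.4 and 30.0 CPM in Ocln-KO. Most of this came from Mbp, at 9.75 to 16.7 CPM over the 6 libraries, and Syt1, at 9.05 to 12.1 CPM, whereas Snap25 was at most 0.0628 CPM and Neurod6 was at 0. Mbp was higher in Ocln-KO by the quasi-likelihood test of edgeR (log2 fold change 0.62, adjusted p = 0.0315 after Benjamini-Hochberg adjustment), a call lost with a replicate block and without any single library but the third Ocln-KO library. The third Ocln-KO library stood apart: on the first principal component of log2 CPM, with 47.2% of the variance, WT had scores of -43.3, -37.0 and -52.8 and Ocln-KO scores of 17.7, 29.1 and 86.3.

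The most abundant members in WT, Car4 and Car2, and the scarcer Car3 and Car14 had lower levels in each Ocln-KO library than in any WT library. The spread within Ocln-KO was wide for Car2, Car3 and Car4, and no member passed the test across all genes. Of the 8 members tested, 0 were higher and 0 lower in Ocln-KO at an adjusted p under 0.05 by the quasi-likelihood test of edgeR (Benjamini-Hochberg), against 3.91% (higher) and 5.04% (lower) of all tested genes. At an unadjusted p under 0.05 there were 4 members, all with the lower level in Ocln-KO, against 15.2% (lower) and 13.9% (higher) of all tested genes. DESeq2 called 1 member lower (Car14) and 0 higher, against 8.67% and 8.15% of all tested genes, and limma-voom called 0 in either direction, against 5.33% lower and 3.7% higher. The WT libraries all lay above the Ocln-KO libraries in 4 of the 8 members, against 19.4% of all tested genes, and the Ocln-KO libraries all lay above in 0, against 16.9%. The median log2 fold change of the 8 was -0.41, beside 0.01 over all tested genes; it was -0.25 with a minimum of 10 counts in every library and -0.02 over all 10 members with no count filter. Without the third Ocln-KO library edgeR called 3 members lower (Car2, Car3 and Car4), and without the first it called 1 (Car3); over all genes the lower calls were 4.63% (944) and 4.3% (875) in these fits. Over all genes edgeR called 770 higher and 992 lower, and these counts moved with single libraries: they were 4 and 19 without WT replicate 1, 85 and 145 without WT replicate 2, 16 and 40 without WT replicate 3, and 220 and 342 without Ocln-KO replicate 2. Scaled by total counts only, 63.5% of the calls were higher in Ocln-KO, against 43.7% with TMM factors. With 3 libraries against 3, an exact two-sided permutation test cannot give a p under 0.1, so none was used for single genes.

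**Figure D1:**
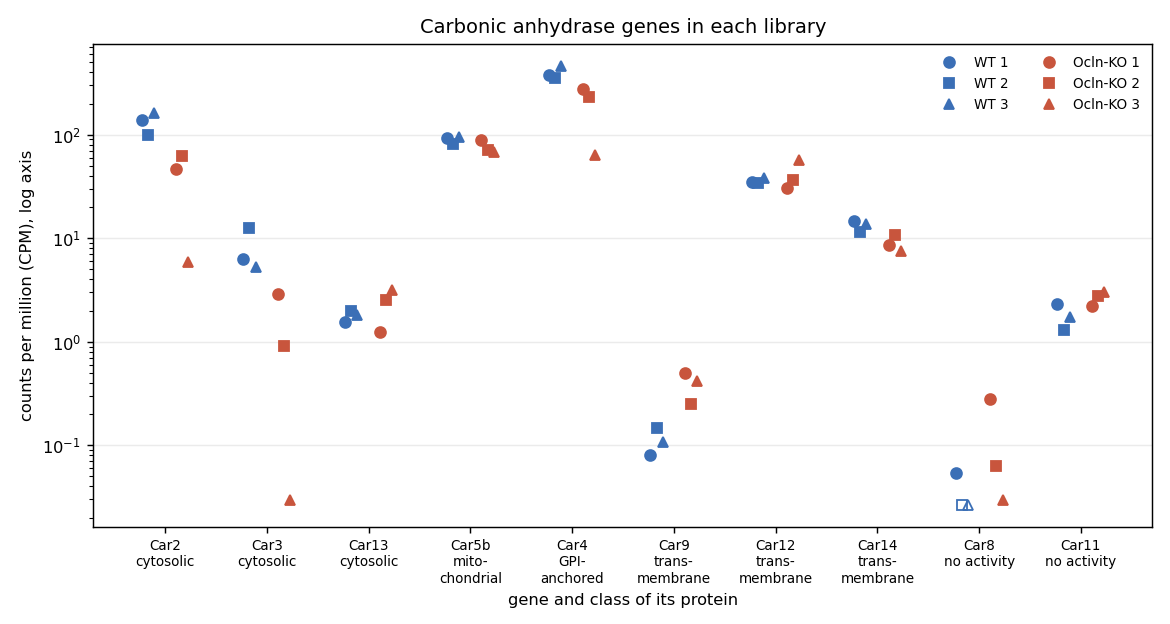
Level of each of the 10 carbonic anhydrase genes in each library, in CPM on a log axis, with WT in blue and Ocln-KO in red; open symbols mark a count of 0 drawn at the level of 1 count. The WT and Ocln-KO points do not overlap for Car2, Car3, Car4, Car14 and Car9, and the third Ocln-KO library is the lowest of all 6 for the first 4 of these.

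Among the cytosolic enzymes, Car2 is the fast and widespread form, and it is found in clear cells and other acid-secreting cells. It had 137, 98.5 and 161 CPM in WT, against 46.4, 62.7 and 5.89 CPM in Ocln-KO. Every Ocln-KO library was below every WT library, and the third Ocln-KO library was far below the other Ocln-KO libraries. Its log2 fold change came to -1.79 (standard error 0.67, 95% interval -3.34 to -0.23, adjusted p = 0.127 after Benjamini-Hochberg adjustment, quasi-likelihood test of edgeR). Without the third Ocln-KO library the log2 difference was smaller, -1.28, and the adjusted p lower, 0.0125, within a range of 0.0125 to 0.297 over 13 alternatives of edgeR and the other tools with Benjamini-Hochberg adjustment. Fewer cells of a type and less RNA per cell cannot be told apart in such bulk samples.

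Car3, a slow enzyme abundant in adipocytes and skeletal muscle, had 6.26, 12.7 and 5.25 CPM in WT, against 2.90, 0.910 and 0.0296 CPM in Ocln-KO. In counts these were 234, 432 and 195 against 93, 29 and 1. All 3 Ocln-KO libraries were below the lowest WT library, and they also differed widely from one another. The fitted log2 change was -2.66 (standard error 0.93, 95% interval -4.81 to -0.50, adjusted p = 0.110 after Benjamini-Hochberg adjustment, quasi-likelihood test of edgeR). The log2 fold change was -4.10 without the first Ocln-KO library and -2.08 without the third. The adjusted p was 0.0438 and 0.0469 in these fits and 0.0484 with no count filter, and over 12 alternatives with Benjamini-Hochberg adjustment in edgeR, DESeq2 or limma-voom it ran from 0.0438 to 0.267.

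Car13, another cytosolic enzyme, was scarce, at 1.55, 1.99 and 1.80 CPM in WT, against 1.25, 2.54 and 3.20 CPM in Ocln-KO. The genotypes overlapped, with the first Ocln-KO library the lowest and the third the highest of all 6. Its log2 fold change of 0.39, which was 0.09 without the third Ocln-KO library and 0.69 without the first, had a 95% interval from -0.49 to 1.27 (adjusted p = 0.547 after Benjamini-Hochberg adjustment, quasi-likelihood test of edgeR). Car2, Car3 and Car13 are neighbours: with Car1 they form a cluster of 4 protein-coding genes over 259044 bp of chromosome 3 (14641727 to 14900770 in GENCODE M21, on GRCm38), with no other protein-coding gene inside. In the third Ocln-KO library, Car2 and Car3 at one end of the cluster had their lowest values and Car13 at the other end its highest.

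Car5b encodes a mitochondrial enzyme, on the X chromosome. Its values were 92.3, 82.1 and 95.2 CPM in WT, against 89.6, 70.8 and 67.4 CPM in Ocln-KO. The genotypes overlapped through the first Ocln-KO library, and the spread was narrow beside that of Car2. On the log2 scale the fold change was -0.24 (standard error 0.13, 95% interval -0.53 to 0.05, adjusted p = 0.243 after Benjamini-Hochberg adjustment, quasi-likelihood test of edgeR).

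Car4 is held on the outer face of the plasma membrane by a GPI anchor and acts on bicarbonate in the lumen; its gene lies on chromosome 11 from 84957786 to 84966044. It was the most abundant member in WT, with 374, 354 and 462 CPM in WT, against 275, 232 and 63.4 CPM in Ocln-KO. All Ocln-KO libraries lay below all WT libraries; the first and second lay moderately below and the third far below. Its log2 fold change came to -1.06 (standard error 0.45, 95% interval -2.10 to -0.02, adjusted p = 0.165 after Benjamini-Hochberg adjustment, quasi-likelihood test of edgeR). Without the third Ocln-KO library it was -0.65 with an adjusted p of 0.0301, and over 13 alternatives with Benjamini-Hochberg adjustment in edgeR, DESeq2 or limma-voom the adjusted p ran from 0.0301 to 0.365.

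Of the transmembrane enzymes, whose active site faces outward, Car14 had 14.7, 11.4 and 13.7 CPM in WT, against 8.54, 10.6 and 7.55 CPM in Ocln-KO. Each Ocln-KO library was below each WT library, by a small margin between the second libraries of the genotypes, and the third Ocln-KO library did not stand far from the rest. The fitted log2 change was -0.57 (standard error 0.18, 95% interval -0.99 to -0.16, adjusted p = 0.0826 after Benjamini-Hochberg adjustment, quasi-likelihood test of edgeR). DESeq2, with Benjamini-Hochberg adjustment, gave an adjusted p of 0.0388, the lowest in a range from 0.0388 to 0.235 over 13 alternatives. Without the third Ocln-KO library, a fit chosen after the data were seen, DESeq2 gave 0.116 and Car14 was no longer called. Car14, on chromosome 3 from 95897768 to 95904691, overlaps the gene Aph1a, which lies on the opposite strand and shares 445 bp of exon with it, 17.5% of the exons of Car14. The paper names a directional library kit, which keeps the strand of the RNA, but whether the counting used strand is not given in the sources used here, so reads there cannot be assigned with certainty. Aph1a had 38.5, 38.3 and 32.1 CPM in WT, against 33.5, 33.6 and 32.7 CPM in Ocln-KO, and its genotypes overlapped.

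Car12, a transmembrane enzyme of many epithelia, had 34.6, 34.4 and 37.9 CPM in WT, against 30.7, 36.4 and 56.7 CPM in Ocln-KO. The WT libraries were close together, and the Ocln-KO libraries reached both below and above them. On the log2 scale the fold change was 0.21 (95% interval -0.27 to 0.69, adjusted p = 0.546 after Benjamini-Hochberg adjustment, quasi-likelihood test of edgeR), and it turned to -0.09 without the third Ocln-KO library.

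Car9, the transmembrane enzyme known as a target of the hypoxia-inducible factors, was near the limit of detection. Its gene, on chromosome 4 from 43506966 to 43513729, overlaps the antisense gene Gm12454. Whether the counting used the strand that the kit keeps is not stated, so reads of the overlap cannot be assigned with certainty. It had 3, 5 and 4 counts in WT and 16, 8 and 14 counts in Ocln-KO, which is 0.0802, 0.147 and 0.108 CPM against 0.499, 0.251 and 0.414 CPM. Every Ocln-KO library was above every WT library, the reverse of the order in Car2, Car3, Car4 and Car14. The summed counts, 38 against 12, gave a ratio of 3.52 after scaling, with an exact 95% interval from 1.80 to 7.40 that covers counting error only. Car9 was below the count filter; tested with no filter, its log2 fold change came to 1.77 (standard error 0.81, adjusted p = 0.240 after Benjamini-Hochberg adjustment, quasi-likelihood test of edgeR).

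Car8 and Car11 encode related proteins that lack the catalytic activity. Car8 had 2, 0 and 0 counts in WT and 9, 2 and 1 counts in Ocln-KO. Only the first Ocln-KO library was above 3 counts, so no fold change is given. Tested with no count filter, Car8 had an adjusted p of 0.417 (Benjamini-Hochberg, quasi-likelihood test of edgeR), so no difference was detected at this depth. Car11 had 2.30, 1.29 and 1.72 CPM in WT, against 2.21, 2.76 and 3.02 CPM in Ocln-KO, and the genotypes overlapped through the first library of each. Its log2 fold change came to 0.59 (95% interval -0.13 to 1.31, adjusted p = 0.251 after Benjamini-Hochberg adjustment, quasi-likelihood test of edgeR).

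**Figure D2:**
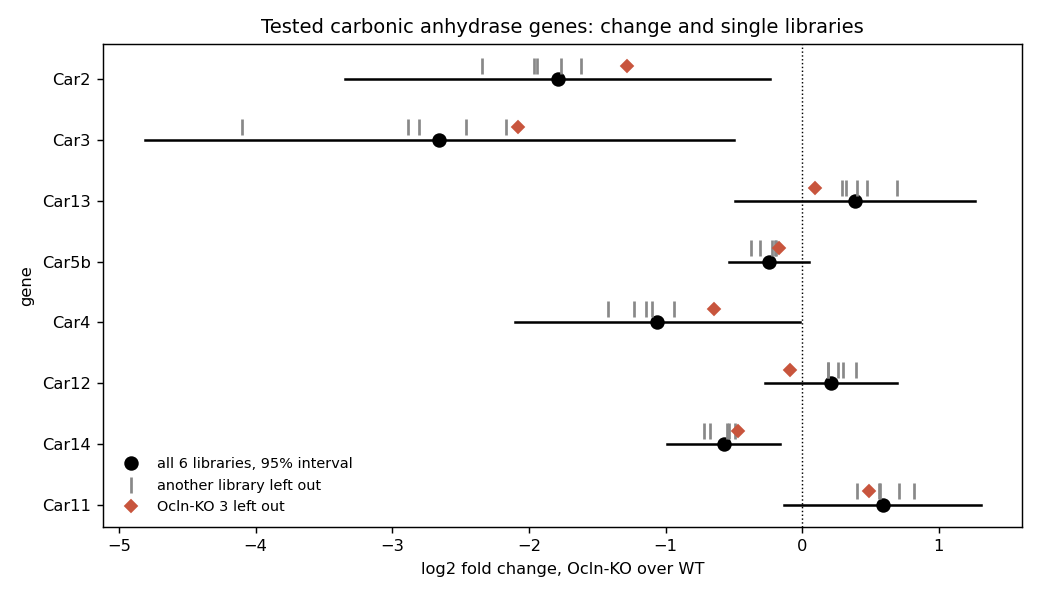
Log2 fold change, Ocln-KO over WT, of the 8 tested members: black points with their 95% intervals use all 6 libraries, grey ticks leave out 1 other library, and red diamonds leave out the third Ocln-KO library. Without that library Car2 moves from -1.79 to -1.28 and Car4 from -1.06 to -0.65, and Car12 from 0.21 to -0.09.

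Outside the members, Car7, a cytosolic enzyme, had 1.68, 1.44 and 1.27 CPM in WT, against 0.904, 3.30 and 3.995 CPM in Ocln-KO. The first Ocln-KO library was the lowest of all 6 and the others were the highest, and the log2 fold change of 0.90 had an adjusted p of 0.283 (Benjamini-Hochberg, quasi-likelihood test of edgeR). It was 0.52 without the third Ocln-KO library. Without the first it was 1.32, with an adjusted p of 0.0434, in a range over 13 alternatives from 0.0434 to 0.553, Benjamini-Hochberg adjustment being used in edgeR, DESeq2 and limma-voom alike. Car5a, a mitochondrial enzyme, had at most 4 counts in any library. Car1, Car6, Car10 and Car15 were listed at 0 in all 6 libraries. In GENCODE M21 Car15 overlaps Gm20518 on the same strand, and Car1 contains the pseudogene Gm16399, which had between 58 and 231 counts. The mode of counting is not given in the sources used here, so a value of 0 for such genes may not show an absence of RNA.

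Compared per length of exon, the order of the members in WT was Car4, Car2, Car5b, Car14, Car12, Car3, Car11, Car13, Car9 and Car8. Car4 had 202 ± 29.3 CPM per kb (SD, n = 3) in WT and Car2 had 54.7 ± 13.1 CPM per kb (SD, n = 3). Car5b followed with 14.1 ± 1.09 CPM per kb (SD, n = 3). With the longest transcript in place of all exons these WT means were 316 for Car4, 74.0 for Car2 and 26.2 CPM per kb for Car5b; the levels of Car3, Car4, Car5b and Car12 rose by over 1.5 times. Car14 and Car12, at 5.21 and 4.69 CPM per kb, were within the spread of their libraries, and with the longest transcript their order turned, at 7.76 and 9.59 CPM per kb. Car11 and Car13, at 0.919 and 0.775 CPM per kb, were likewise within their spread, while Car9 and Car8 were below 0.1 CPM per kb.

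Summed over the 10 members, the level was 276, 249 and 331 CPM per kb in WT and 184, 167 and 58.9 CPM per kb in Ocln-KO. Car2 and Car4 together made up 89.5%, 88.7% and 91.3% of that sum in WT and 86.7%, 86.2% and 58.9% in Ocln-KO. By the longest transcript the sums were 426, 386 and 509 CPM per kb in WT and 288, 260 and 96.6 CPM per kb in Ocln-KO, and the shares 88.1%, 87.3% and 90.0% in WT and 85.0%, 84.5% and 55.7% in Ocln-KO. The first and second Ocln-KO libraries therefore held less in sum, with nearly the WT share of this pair, and the third differed in both. Car2 alone had 20.5%, 16.4% and 20.1% of the sum in WT and 10.4%, 15.5% and 4.13% in Ocln-KO. In the third Ocln-KO library Car2, at 2.43 CPM per kb, was below Car5b at 10.6, Car12 at 7.46 and Car14 at 2.97 CPM per kb.

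**Figure D3:**
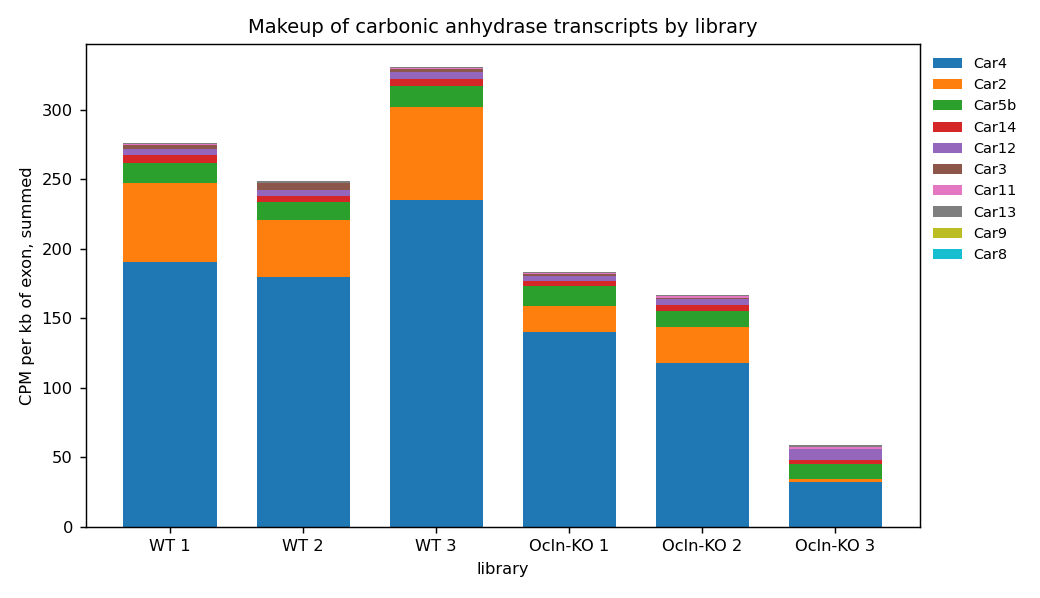
Level of the 10 members in CPM per kb of exon, stacked for each library. Car4 and Car2 fill most of each bar in WT, and the bar of the third Ocln-KO library, at 58.9 CPM per kb, is the lowest.

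The genes whose pattern over the 6 libraries lay nearest to that of Car2 were Slc52a3, Spint3 and Gm4988, among 16358 tested genes with a mean of at least 1 CPM. The measure is the root mean square difference of log2 CPM, centred for each gene, and it was 0.160, 0.221 and 0.224. Slc52a3, a riboflavin transporter, had 147, 119 and 160 CPM in WT, against 44.4, 54.2 and 6.75 CPM in Ocln-KO. Spint3 had 212, 178 and 263 CPM in WT, against 99.5, 89.6 and 12.6 CPM in Ocln-KO. Gm4988 had 720, 548 and 669 CPM in WT, against 311, 293 and 35.0 CPM in Ocln-KO.

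Marker lists of the cell types that can hold these members were counted in the same way. Of the 10 clear cell markers, all had each WT library above each Ocln-KO library, and 7 were lower at an adjusted p under 0.05 by the quasi-likelihood test of edgeR (Benjamini-Hochberg), with a median log2 fold change of -0.84. Among them were the proton pump subunit genes Atp6v0a4, Atp6v0d2 and Atp6v1b1 and Foxi1, a transcription factor of acid-secreting cells. The count of 7 became 0 without WT replicate 1, 1 without WT replicate 2, 0 without WT replicate 3 and 4 without Ocln-KO replicate 2. With a replicate block edgeR called 0 genes in this list and in every other list given here. Summed, the 10 markers had 174, 185 and 238 CPM in WT, against 116, 99.4 and 88.7 CPM in Ocln-KO, and none was at 0. The most abundant, the proton pump subunit gene Atp6v1c2, had 49.9, 54.7 and 74.2 CPM in WT, against 48.8, 40.0 and 14.7 CPM in Ocln-KO. The third Ocln-KO library was thus far below the others in Atp6v1c2 and in Car2, but not in the summed markers. The part of clear cell number in the values of Car2 was not tested.

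For Car3, the adipocyte and skeletal muscle markers are given beside it. Of 10 adipocyte markers 8 were tested and 0 passed in either direction by the quasi-likelihood test of edgeR (Benjamini-Hochberg), 3 having an unadjusted p under 0.05, DESeq2 calling 1 lower and limma-voom 0. Their median log2 fold change was -1.74. With Ocln-KO replicate 1 left out, and also without Ocln-KO replicate 3, edgeR called 1 lower. The WT libraries lay above in 5 of the 8, against 19.4% of all tested genes. In the third Ocln-KO library, where Car3 had 1 count, 4 of the 10 (Adipoq, Plin1, Cidec and Cfd) had none and the other genes had counts. Adipoq had 0.882, 1.44 and 0.673 CPM in WT, against 0.530, 0.0942 and 0 CPM in Ocln-KO. The whole list summed to 52.3, 60.5 and 60.5 CPM in WT, against 45.5, 49.5 and 40.0 CPM in Ocln-KO, most of it from Plin4, the most abundant gene, and Lipe. Plin4 had 27.6, 32.0 and 36.8 CPM in WT, against 25.3, 26.0 and 28.1 CPM in Ocln-KO, and Lipe had 16.7, 13.5 and 14.0 CPM against 14.8, 20.2 and 11.2 CPM; in both the genotypes overlapped. Of 10 skeletal muscle markers 6 were tested, of which Acta1 was higher and Myh1 lower at an adjusted p under 0.05 (Benjamini-Hochberg, quasi-likelihood test of edgeR), and limma-voom called neither. Both calls were lost when WT replicate 1, 2 or 3 or Ocln-KO replicate 2 was left out, and that of Acta1 also without Ocln-KO replicate 3. The call of Myh1 was also absent with a minimum of 10 counts in every library, a filter that Myh1 did not meet. Their sum was 19.4, 19.2 and 16.7 CPM in WT, against 17.2, 23.4 and 11.7 CPM in Ocln-KO, with Mb the most abundant gene. The part of these tissues in the values of Car3 was not tested.

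Car4 is also found in capillary endothelium and Car2 in erythroid cells. The 8 endothelial markers summed to 168, 151 and 144 CPM in WT, against 122, 136 and 148 CPM in Ocln-KO, and 1 of them, Egfl7, the most abundant in WT, was lower by the quasi-likelihood test of edgeR (Benjamini-Hochberg); without WT replicate 1 or WT replicate 3 there was none. Egfl7 had 54.0, 49.3 and 45.2 CPM in WT, against 20.4, 25.2 and 28.1 CPM in Ocln-KO, whereas 5 of the 8 had a log2 fold change above 0 and the median was 0.20. The third Ocln-KO library, which had the lowest Car4, had the highest endothelial sum among the Ocln-KO libraries. Of 6 erythroid markers listed 5 were tested and 1, Alas2, was lower by the same test, with a median log2 fold change of -1.90. All 5 had an unadjusted p under 0.05, and the number lower was 3 by DESeq2, 3 with no count filter and 1 by limma-voom. The call of Alas2 was lost without WT replicate 1, 2 or 3 and without Ocln-KO replicate 2. The erythroid sum was 22.1, 49.6 and 31.4 CPM in WT, against 9.23, 13.2 and 6.04 CPM in Ocln-KO, with Hbb-bs the most abundant gene. Car1, an abundant enzyme of red cells, was listed at 0. The part of these cells in the values of Car2 and Car4 was not tested.

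**Figure D4:**
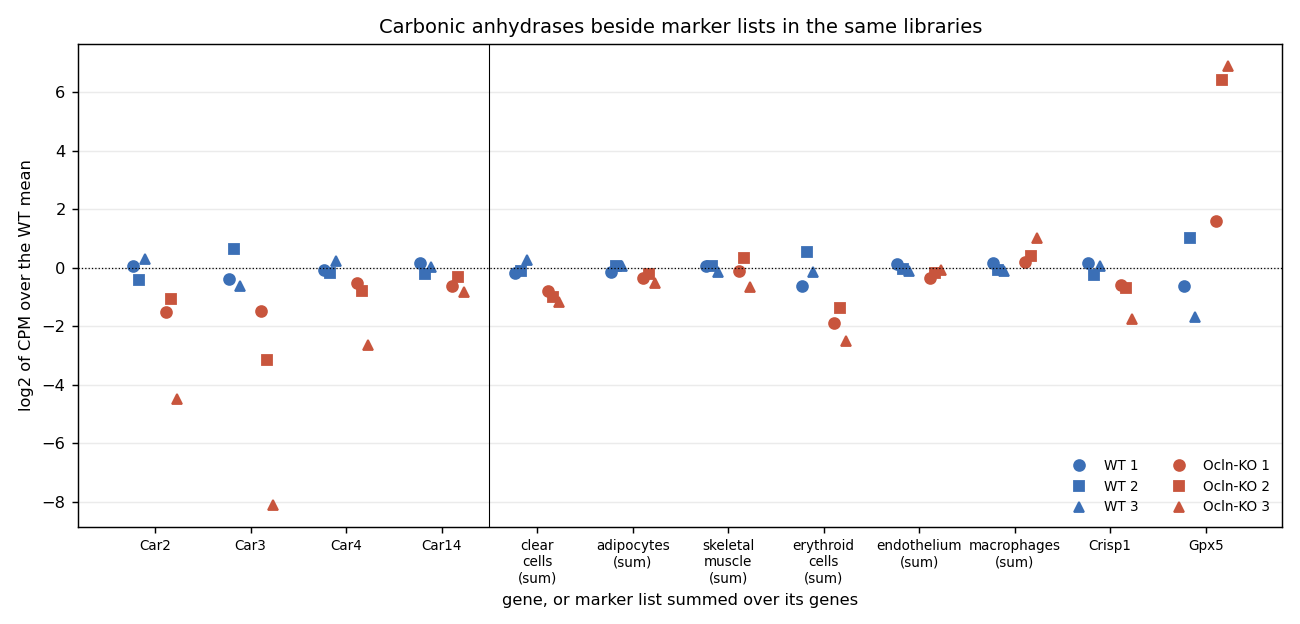
Log2 of the level in each library over the WT mean, for Car2, Car3, Car4 and Car14, for 6 marker lists summed over their genes, and for the principal cell genes Crisp1 and Gpx5; WT is blue and Ocln-KO red. The clear cell sum is lower in each Ocln-KO library, at 116, 99.4 and 88.7 CPM, while Car2, Car3 and Car4 are much lower in the third Ocln-KO library than in the others.

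Principal cells, the most numerous cells of the duct, are marked in a region-dependent way. Of 10 markers 7 were tested, of which Gpx5 was higher and Aqp9 lower by the quasi-likelihood test of edgeR (Benjamini-Hochberg). Rnase10, Cst11 and Adam28 were below the count filter, with at most 20, 5 and 5 counts in any library. Cst8 was tested but had at most 25 counts. The calls of Gpx5 and Aqp9 were both lost without WT replicate 1, 2 or 3 or Ocln-KO replicate 2. The number lower was 2 without Ocln-KO replicate 3, by DESeq2 and with no count filter. Gpx5, a secreted peroxidase of the caput, had 54.5, 172 and 26.3 CPM in WT, against 256, 7264 and 10039 CPM in Ocln-KO. Ocln-KO replicates 2 and 3 were high in Gpx5, whereas only the third was far below the others in Car2 and Car4. The 10 genes summed to 33561, 30020 and 28753 CPM in WT, against 22954, 35107 and 30366 CPM in Ocln-KO, with Crisp1 the most abundant and none at 0 in all libraries. The part of the regions of the duct in the values of Car2 and Car4 was not tested.

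The bicarbonate and proton exchange list holds 24 genes that work beside carbonic anhydrases. Of its 19 tested genes 0 were higher and 2 lower by the quasi-likelihood test of edgeR (Benjamini-Hochberg), with a median log2 fold change of -0.22. At an unadjusted p under 0.05 there were 5, and DESeq2 and limma-voom each called 0 higher and 3 lower. Slc26a3, a chloride and bicarbonate exchanger, had 23.3, 26.2 and 23.7 CPM in WT, against 7.29, 11.1 and 10.5 CPM in Ocln-KO (log2 fold change -1.34, standard error 0.17, adjusted p = 0.0117 after Benjamini-Hochberg adjustment, quasi-likelihood test of edgeR). Slc4a8, a sodium-dependent bicarbonate transporter, had 68.7, 58.8 and 67.6 CPM in WT, against 37.9, 33.1 and 23.7 CPM in Ocln-KO (log2 fold change -1.04, standard error 0.17, adjusted p = 0.0201 after Benjamini-Hochberg adjustment, quasi-likelihood test of edgeR). In both genes the genotypes were well apart, and the third Ocln-KO library did not stand far from the others. The number lower was 0 without WT replicate 1, 1 without WT replicate 2 and 0 without WT replicate 3 or with a replicate block, and without Ocln-KO replicate 1 there was 1 higher; 3 were lower with no count filter and without Ocln-KO replicate 3.

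Among the monocarboxylate transport genes, which move lactate with protons and with which carbonic anhydrases are known to work, 5 of 6 were tested and 0 passed in either direction by the quasi-likelihood test of edgeR (Benjamini-Hochberg). At an unadjusted p under 0.05 there were 2, DESeq2 called 1 higher and 1 lower, and limma-voom called 0; edgeR called 1 lower with no count filter and without Ocln-KO replicate 1 or 3, and 1 higher with total counts only.

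Of the 10 hypoxia response genes, given because Car9 belongs to this response, 0 were higher and 2 lower by the quasi-likelihood test of edgeR (Benjamini-Hochberg), with 4 at an unadjusted p under 0.05 in either direction. DESeq2 and limma-voom each called 0 higher and 2 lower. The 2 were Egln3 and Ldha. Egln3 had 20.6, 18.6 and 23.8 CPM in WT, against 15.9, 13.1 and 12.7 CPM in Ocln-KO. Ldha had 135, 125 and 144 CPM in WT, against 91.9, 112 and 95.4 CPM in Ocln-KO. Both had higher levels in each WT library, the reverse of Car9. Of the 10 genes, 3 had this order and 1 the order of Car9, against 19.4% and 16.9% of all tested genes. The median log2 fold change of the list was -0.29, with 8 of the 10 below 0. Vegfa had the order of Car9, with 21.7, 16.2 and 18.4 CPM in WT, against 22.5, 26.7 and 25.8 CPM in Ocln-KO, and did not pass the test (log2 fold change 0.42, adjusted p = 0.0950 after Benjamini-Hochberg adjustment, quasi-likelihood test of edgeR). The count of 2 lower held with no count filter and with at least 10 counts in every library. It was 1 with RLE factors and without Ocln-KO replicate 1, and 0 with total counts only, a replicate block or without any other single library.

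The promoters of Car9, Car4 and Car14 are shown because they hold ACGTG, a form of the core of the hypoxia response element. Another reason is that WT and Ocln-KO values of these genes did not overlap, in opposite directions. Other forms of the core were not searched. RefSeq promoter windows on GRCm38.p6, of 250 bases before and 50 after the gene start, were matched for 6 of the 10 members: Car4, Car5b, Car9, Car11, Car12 and Car14. Capitals mark the motif ACGTG or its reverse complement CACGT, searched on both strands. Of all 32851 promoter windows 19.6% hold it, as do 3 of the 7 windows of these 6 members. The windows are chr4:43506776-43507075 (plus strand) for Car9, chr11:84957504-84957803 (plus strand) for Car4 and chr3:95904636-95904935 (minus strand) for Car14, each written 5′ to 3′.
Car9: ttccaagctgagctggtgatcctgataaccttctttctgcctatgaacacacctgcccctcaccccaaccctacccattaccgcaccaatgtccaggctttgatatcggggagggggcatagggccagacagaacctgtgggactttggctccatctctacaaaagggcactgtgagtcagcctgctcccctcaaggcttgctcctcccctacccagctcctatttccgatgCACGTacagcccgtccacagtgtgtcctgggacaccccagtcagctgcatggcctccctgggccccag
Car4: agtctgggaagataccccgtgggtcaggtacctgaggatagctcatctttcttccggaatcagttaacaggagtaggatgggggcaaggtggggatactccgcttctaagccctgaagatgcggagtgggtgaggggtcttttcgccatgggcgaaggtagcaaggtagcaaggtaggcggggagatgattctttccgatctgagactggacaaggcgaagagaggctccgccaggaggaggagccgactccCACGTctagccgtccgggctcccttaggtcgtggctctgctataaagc
Car14: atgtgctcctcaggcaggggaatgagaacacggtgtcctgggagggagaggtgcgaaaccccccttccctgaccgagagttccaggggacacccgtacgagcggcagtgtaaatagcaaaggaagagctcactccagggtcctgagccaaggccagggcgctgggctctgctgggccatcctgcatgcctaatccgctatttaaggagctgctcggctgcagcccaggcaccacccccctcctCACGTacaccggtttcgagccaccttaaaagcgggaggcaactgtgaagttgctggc
Counted from the RefSeq start, the motif begins 18 bases before it in Car9 and 7 bases before it in Car14, and in Car4 at base 3 of the transcript. The GENCODE M21 genes start elsewhere, 60 bases upstream of the RefSeq start in Car9, 6 upstream in Car14 and 32 downstream in Car4. By those starts the motif lies inside Car9, spans the start of Car14 and lies before Car4. A match describes these letters alone, and the same motif stands in genes with the higher level in Ocln-KO (Car9) and in WT (Car4 and Car14).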

How the data were processed

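Per the labels and the paper, RNA was depleted of rRNA, sequenced, aligned to GRCm38 with HISAT2 2.0.4 (version from the submitters' processing notes) and assigned to genes with HTSeq. The authors deposited a raw, unnormalized count per gene and library. The analysis used R 4.3.3 and edgeR 4.0.16 (filterByExpr, TMM factors, glmQLFit and glmQLFTest, genotype only), and p was adjusted by Benjamini-Hochberg over the 19691 tested genes. Intervals of 95% use the standard error, the log2 fold change over the square root of F, and the test's degrees of freedom. Intervals and a floor of 3 counts cover counting error only where counts are given. Alternatives were DESeq2 1.42.0, limma-voom (limma 3.58.1), RLE factors, total counts only, a minimum of 10 counts in every library, no count filter, a replicate block, each library left out and, for levels, the longest transcript. The fits were checked on simulated counts. No simulated library was made to stand apart like the third Ocln-KO library, so the check does not cover that feature. Exon lengths come from GENCODE M21 and promoters from RefSeq.

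Named were all 10 members, the 6 other family genes, Ocln, genes of the pathway lists with an adjusted p under 0.05 (at most 5 per list), the most abundant gene of each marker list (by the mean of all 6 libraries) and genes at 0, and the 3 genes nearest to Car2 and to any member called, with 0.1 CPM added before logs. Other genes of marker lists, Vegfa, Aph1a, Gm12454, Gm20518, Gm16399 and Lipe were named after their values were seen. The members and lists were chosen with earlier results of these data known. Of the clear cell markers 1 enters the counts and sums of its list and is otherwise not reported here. Of the erythroid markers Ahsp was not used here. Proteomes are not analysed here.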

Additional observations from a re-analysis of the deposited data

How the results depend on the processing

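The range of results over 13 alternatives, and over 2 more chosen after the data were seen (DESeq2 and limma-voom, each without the third Ocln-KO library), was as follows. Members higher in Ocln-KO at an adjusted p under 0.05 numbered 0 in every one. Members lower, 0 at first, numbered 1 with no count filter, 1 by DESeq2 and between 0 and 3 with each library left out. The added DESeq2 fit called 3 (Car2, Car3 and Car4), with adjusted p values of 2.66e-07, 0.000578 and 0.000652 after Benjamini-Hochberg adjustment. The added limma-voom fit called 2 (Car2 and Car4), at 0.0138 and 0.0250 with the same adjustment, and gave 0.0669 for Car3. All genes higher, 770 at first, numbered 1175 with total counts only, 1604 by DESeq2, 10 with a replicate block, between 4 and 782 with each library left out and 1372 in the added DESeq2 fit. All genes lower, 992 at first, numbered 1708 by DESeq2, 31 with the replicate block, between 19 and 944 with each library left out and 1615 in the added DESeq2 fit. The block called no member. The deviations of libraries with the same number correlated at -0.05, -0.03 and -0.003. With 3 libraries per genotype, such values cannot show whether the numbers pair the samples. No library correlated best with the library of its own number. Among the 8 tested members only Car12 changed direction, to -0.087 without the third Ocln-KO library (0.39 at most with another left out), and to -0.079 and -0.092 in the added DESeq2 and limma-voom fits; the cause was not tested. Car3 was not tested at a minimum of 10 counts in every library, as it had 1 count in the third Ocln-KO library. Of the counts for gene lists, 102 of 480 comparisons, added fits included, changed by over 1.5 times or changed to or from 0. Depth limited Car8 and Car9, whose WT libraries had at most 5 counts.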

Other observations

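Other marker lists, which bear less directly on carbonic anhydrases, gave these values; with a replicate block edgeR called 0 genes in each of them. All 8 macrophage markers had a log2 fold change above 0 with a median of 0.58, and 0 passed in either direction by the quasi-likelihood test of edgeR (Benjamini-Hochberg), with 6 at an unadjusted p under 0.05, 3 higher by DESeq2 and 0 by limma-voom. Without Ocln-KO replicate 1 edgeR called 6 higher. Their sum was 240, 206 and 201 CPM in WT, against 246, 288 and 435 CPM in Ocln-KO, with Lyz2 the most abundant, so the library with the lowest Car2 and Car4 had the highest macrophage sum. The 6 smooth muscle markers summed to 1213, 1423 and 1182 CPM in WT, against 1601, 2120 and 1775 CPM in Ocln-KO; 1, Myh11, the most abundant over the 6 libraries (Acta2 in WT), was higher by edgeR's test, and without WT replicate 1, 2 or 3 or Ocln-KO replicate 2 it was not, while without Ocln-KO replicate 1 there were 4.

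Of the 6 basal cell markers Krt14 was higher by edgeR's test, a call lost without WT replicate 1, 2 or 3 or Ocln-KO replicate 2; by the mean Itga6 was the most abundant in WT and Trp63 in Ocln-KO. The 7 markers of spermatids and sperm had 0 calls in either direction by edgeR, 0 at an unadjusted p under 0.05 and 0 by DESeq2 and limma-voom, and without Ocln-KO replicate 3 there was 1 higher. They summed to 279, 204 and 246 CPM in WT, against 271, 300 and 69.3 CPM in Ocln-KO, with Odf1 the most abundant. As in Car2 and Car4, the third Ocln-KO library was the lowest of all 6. Of the distal Hox genes only Hoxa10 was tested, with a log2 fold change of -0.01. Of the 8 brain genes 6 were tested and Mbp, the most abundant over the 6 libraries (Syt1 in WT), was higher by edgeR's test, a call lost when any library but Ocln-KO replicate 3 was left out. The part of these cells in the values of the carbonic anhydrases was not tested.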
